A study of Mus musculus with 20 samples.

Results

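The genes described here are the collagen genes of the mouse other than Col4a1 and Col4a2, the pair that encodes the common chains of basement membrane collagen IV. Membership followed from the symbol, with no measured value in the rule: all genes whose name is Col, a number, the letter a and a number, with Col4a1 and Col4a2 left out. This gave 42 of 54446 gene IDs in the tables. Their RNA levels were followed across 5 groups of stem-cell-derived structures that model the mouse embryonic trunk, with 3 libraries in each group. Levels are given in TPM, a unit that is corrected for transcript length and scaled to a fixed total per library. Comparisons between genes are less certain than those between groups, because the deposited read coverage can rank genes otherwise. In TLSMG, Col26a1 measured 74.3, 62.6 and 66.6 TPM beside 24, 22.3 and 25.7 for Col5a1. Their coverage there was 49.1, 34.4 and 65.5 beside 48.8, 37.1 and 77.5. Shares and ratios of genes below are of TPM.

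Collagens are secreted or membrane proteins in which 3 chains wind around each other as a triple helix. Fibrillar collagens (types I, II, III, V, XI, XXIV and XXVII) assemble into fibrils, and network collagens such as types IV and VIII form sheets in basement membranes. FACIT collagens (fibril-associated collagens with interrupted triple helices) sit on the surface of fibrils, beaded filament collagen VI forms microfibrils around cells, and multiplexins are basement membrane proteins that carry sugar chains. Transmembrane collagens stay in the plasma membrane. In the embryonic trunk, collagen II is known for the sheath of the notochord and the cartilage that arises from somites, and collagens I and III for loose mesenchyme.

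All groups came from 1 line of mouse embryonic stem cells (F1G4) carrying the double reporter T::H2B-mCherry/Sox2::H2B-Venus. The cells were grown on feeder cells, separated from them, aggregated, and given a pulse of 3 µM CHIR99021, an activator of WNT signalling, after 48 h. The group called 96h was collected at 96 h as pools of 10 structures, and the other groups at 120 h as pools of 6. Gastruloid structures had no Matrigel, a basement membrane extract that sets as a gel. The trunk-like structures called TLSMG were embedded in it. TLSMGC structures also received CHIR99021 again, and TLSMGCL structures received CHIR99021 together with LDN, which blocks BMP receptors. Every pool held structures picked for an asymmetric pole, so the values describe picked structures. The labels speak of 3 biological replicates, all from the same cell line, and p-values measure the spread between these pools only.

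In pooled structures, fewer cells of a type and less RNA per cell cannot be told apart. Coverage divided by FPKM, a measure of relative depth, ran from 3.12 to 6.84 over the 15 libraries. By correlation across genes, all libraries but TLSMGC replicate 3 and TLSMGCL replicate 2 were closest to one of their own group, and those paired with each other (r = 0.988). Of the 15 members that reached a mean of 5 TPM in some group, 12 had their highest 96h value in 96h replicate 1, and results that turn on that library are given with and without it.

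The sequences shown first are the promoters of the members on which the results below turn: the most abundant member (Col18a1), the pair that rose together with CHIR99021 (Col4a5 and Col4a6), and 2 fibrillar members that differed in the same comparison (Col1a2 and Col3a1). They are RefSeq windows on build GRCm38.p6, from 250 bases before to 50 bases after an annotated start. RefSeq windows matched 33 of the 42 members, with 36 windows in all. Each is printed 5′ to 3′ on the strand of its gene. Capitals mark matches on either strand to 4 short motifs. One was the TATA box, searched as TATAAA. Another was the box named CCAAT after its letters. The GC box of Sp1-like factors was searched as GGGCGG. The core motif of the WNT-responsive TCF/LEF factors was searched as CTTTGAT.
Col18a1, start 1 (chr10:77166481-77166780, minus strand): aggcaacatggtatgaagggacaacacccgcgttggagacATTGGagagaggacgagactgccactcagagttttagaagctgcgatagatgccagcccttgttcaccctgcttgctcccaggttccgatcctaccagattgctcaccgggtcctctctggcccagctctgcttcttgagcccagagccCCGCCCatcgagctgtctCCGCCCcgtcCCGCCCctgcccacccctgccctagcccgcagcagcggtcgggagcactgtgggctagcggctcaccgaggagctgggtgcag
Col18a1, start 2 (chr10:77113656-77113955, minus strand): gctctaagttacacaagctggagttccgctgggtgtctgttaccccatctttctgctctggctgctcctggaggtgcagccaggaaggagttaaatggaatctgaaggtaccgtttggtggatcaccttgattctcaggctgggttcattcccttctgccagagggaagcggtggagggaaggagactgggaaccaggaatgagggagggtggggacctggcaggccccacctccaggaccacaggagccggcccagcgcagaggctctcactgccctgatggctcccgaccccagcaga
Col4a5 (chrX:141475169-141475468, plus strand): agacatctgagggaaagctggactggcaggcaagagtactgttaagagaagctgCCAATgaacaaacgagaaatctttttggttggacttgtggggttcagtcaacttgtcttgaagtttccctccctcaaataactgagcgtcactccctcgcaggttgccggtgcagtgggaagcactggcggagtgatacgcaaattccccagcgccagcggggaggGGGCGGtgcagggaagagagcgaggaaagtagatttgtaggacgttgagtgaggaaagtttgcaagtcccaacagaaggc
Col4a6 (chrX:141474027-141474326, minus strand): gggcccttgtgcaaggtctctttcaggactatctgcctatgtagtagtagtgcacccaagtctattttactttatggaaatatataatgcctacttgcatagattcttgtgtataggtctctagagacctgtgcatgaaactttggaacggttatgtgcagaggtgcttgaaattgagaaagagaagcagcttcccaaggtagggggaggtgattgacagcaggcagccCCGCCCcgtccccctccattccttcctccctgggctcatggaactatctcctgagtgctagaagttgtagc
Col1a2 (chr6:4505368-4505667, plus strand): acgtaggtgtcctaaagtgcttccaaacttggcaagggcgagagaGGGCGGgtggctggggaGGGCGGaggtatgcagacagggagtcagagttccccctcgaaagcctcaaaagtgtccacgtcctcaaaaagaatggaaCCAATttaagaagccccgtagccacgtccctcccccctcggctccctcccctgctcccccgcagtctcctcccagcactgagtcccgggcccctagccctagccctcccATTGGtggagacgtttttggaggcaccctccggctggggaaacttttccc
Col3a1 (chr1:45311288-45311587, plus strand): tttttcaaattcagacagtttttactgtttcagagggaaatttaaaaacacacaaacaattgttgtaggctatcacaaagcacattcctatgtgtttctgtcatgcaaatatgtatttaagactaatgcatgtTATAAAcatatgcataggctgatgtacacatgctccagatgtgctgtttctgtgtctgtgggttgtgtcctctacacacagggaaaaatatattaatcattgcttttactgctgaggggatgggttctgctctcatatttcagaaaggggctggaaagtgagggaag

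The first Col18a1 window held 1 CCAAT box and 3 GC boxes, and the second held none of the 4 motifs. Col4a5 had 1 CCAAT box and 1 GC box, and Col4a6 had 1 GC box. Col1a2 had 2 CCAAT boxes and 2 GC boxes, while Col3a1 had 1 TATA box and no GC box. Over the 36 windows of the members, 58.3% held a GC box, against 35.7% of all 32851 RefSeq windows of the same length. A CCAAT box was in 30.6% of the members' windows and 37.4% of all, a TATA box in 13.9% and 13.6%, and a TCF/LEF core in 2.78% and 3.73%. These are counts of letters in a window and not of bound sites.

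Of the 42 members, 21 had a mean of at least 1 TPM over the 15 libraries and were tested, and 15 reached a mean of 5 TPM in at least 1 group. The other 21 members were below the level for testing. Tests were made with limma on log2(TPM + 1), with 14290 genes in the fit and p-values adjusted by the Benjamini-Hochberg method over all of them. All log2 differences below are on this scale, which understates the change of low genes, and "changed" means an adjusted p under 0.05. Across the 5 groups, 18 of 21 tested members differed by the moderated F test, against 73.5% of all genes. Col5a1, Col11a2 and Col16a1 did not pass it, with adjusted p of 0.254, 0.0539 and 0.0617.

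The summed level of all 42 members was 154 to 195 TPM in the 96h libraries. It ran from 412 to 450 TPM in Gastruloid, from 434 to 474 in TLSMG, from 421 to 525 in TLSMGC and from 463 to 538 in TLSMGCL. The sums at 120 h therefore lay above all 96h sums, while at 120 h the groups overlapped, except that all TLSMGCL sums exceeded all Gastruloid sums. Col18a1, Col2a1, Col26a1 and Col5a1 together made up 49.2% to 54.8% of the members' TPM at 96 h and 76.2% to 82.9% at 120 h. They were chosen for the highest means over all 15 libraries, most of which are of 120 h, so the higher share there follows in part from the choice. At 96 h Col13a1, with a mean of 26.8 TPM, lay above Col2a1 (7.83 TPM) and Col26a1 (7.13 TPM).

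From 96h to Gastruloid, 13 of the 21 tested members changed, 8 higher and 5 lower, where 41.2% of all genes changed (20.8% higher and 20.5% lower). The median difference of the tested members was 0.18, beside 0.004 for all genes. From 96h to TLSMG, 12 changed, 9 higher and 3 lower, against a background of 46% (33.5% higher, 12.5% lower), with medians of 0.56 and 0.143. Matrigel alone, TLSMG against Gastruloid, came with 7 changes, 5 higher and 2 lower, where 39.3% of all genes changed (31.5% higher, 7.87% lower), with medians of 0.11 and 0.134. Added CHIR99021, TLSMGC against TLSMG, came with 13 changes, 4 higher and 9 lower, at a background of 40.9% (10.4% higher, 30.5% lower), with medians of -0.31 and -0.157. LDN on top of CHIR99021 came with 2 changes, both lower, where 1.18% of all genes changed (0.777% lower), with medians of -0.02 and -0.039. As tested, the share of members that changed was below the background with Matrigel and above it in the other comparisons. Whether these shares differ from the background was not tested. With LDN the share rests on 2 genes, where 0 were called by limma without the filter and 1 with those groups alone. Gastruloid and TLSMG were set against the same 96h libraries, and the TLSMG libraries enter 3 comparisons, so the comparisons are not independent.

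These splits moved with the scaling. Median-of-ratios scaling moved the median of all genes from 0.143 to -0.012 in TLSMG against 96h, from 0.134 to -0.019 in TLSMG against Gastruloid, and from -0.157 to -0.011 in TLSMGC against TLSMG. With it, the members split 2 higher and 4 lower in TLSMG against Gastruloid and 6 higher and 8 lower in TLSMGC against TLSMG. With FPKM the splits were 10 higher and 3 lower (Gastruloid against 96h), 2 and 5 (TLSMG against Gastruloid) and 5 and 6 (TLSMGC against TLSMG). After correction for GC content and length they were 10 and 5, 2 and 4, and 7 and 5 in the same order. The tested members had a median GC content of 56.7%, against 49.9% for all genes tested.

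**Figure D1:**
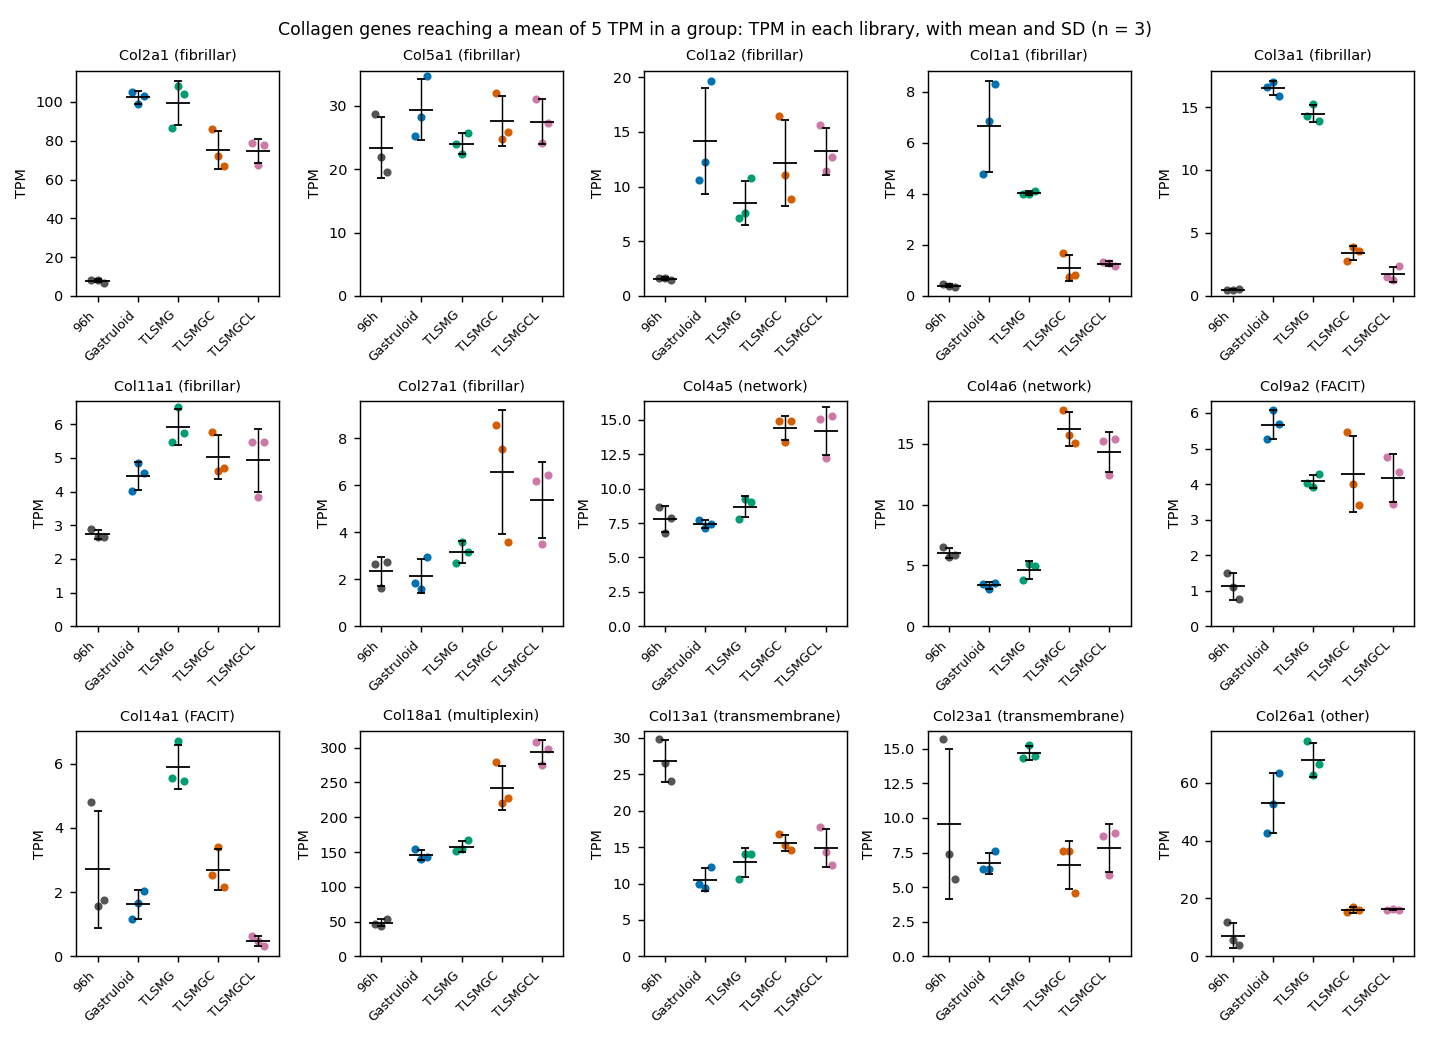
TPM (vertical axes, from 0) of the 15 collagen genes that reached a mean of 5 TPM in a group, in each of the 15 libraries by group (horizontal axes). Points are libraries and bars are the mean and SD of 3, and Col2a1 and Col18a1 stand far above their 96h values in all 120 h groups.

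Among the fibrillar collagens, 5 of the 8 tested rose from 96h to Gastruloid, where 20.8% of all genes rose, and 5 rose to TLSMG, where 33.5% did. None of the 8 fell in either comparison by limma or under the other scalings. Col2a1, the single chain of collagen II, measured 8.43, 8.21 and 6.84 TPM in the 96h libraries. It measured 105, 98.8 and 103 TPM in Gastruloid, 86.7, 108 and 104 in TLSMG, 85.9, 72.2 and 67.1 in TLSMGC, and 79, 67.7 and 77.7 in TLSMGCL. All 120 h libraries lay far above all 96h libraries. The difference from 96h was 3.55 (SE 0.11, adjusted p 3.47e-11) in Gastruloid and 3.51 (SE 0.11, adjusted p 7.25e-11) in TLSMG, with means 13 and 12.7 times the 96h mean. All TLSMGC libraries were below all TLSMG libraries, by -0.41 (SE 0.11, adjusted p 0.00867). This last call held with median-of-ratios scaling (-0.25) and was lost after GC and length correction (-0.07, adjusted p 0.506). LDN left Col2a1 at nearly the same mean, 74.8 beside 75.1 TPM.

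Col3a1, the chain of collagen III, started at 0.475, 0.468 and 0.567 TPM at 96 h. It stood at 16.6, 17 and 15.9 TPM in Gastruloid, 14.3, 15.2 and 13.9 in TLSMG, 2.78, 3.87 and 3.6 in TLSMGC, and 1.49, 1.29 and 2.41 in TLSMGCL. No 2 neighbouring groups in this order overlapped. It rose by 3.54 (SE 0.14) from 96h to Gastruloid and by 3.37 (SE 0.14) to TLSMG, means 32.7 and 28.8 times that of 96h. It fell by 1.82 (SE 0.14, adjusted p 3.97e-07) with CHIR99021, to a mean 4.24 times lower. With LDN it fell by a further 0.71 (SE 0.14, adjusted p 0.0251). That last call was lost without any one of TLSMGC replicates 2 and 3 and TLSMGCL replicates 1 and 2, where the difference was -0.63, -0.67, -0.65 and -0.59, and in a fit of these groups alone (adjusted p 0.26). Without the filter on low values it was lost too (adjusted p 0.0562). An annotated microRNA gene, Gm47302, lies within exons of Col3a1 on the same strand (mean 6.21 TPM), and how reads were shared between them is not given in the sources used here.

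Collagen I is built from 2 chains of Col1a1 and 1 of Col1a2, and the levels of the pair diverged between groups. Col1a1 measured 0.466, 0.391 and 0.368 TPM at 96 h and 4.77, 6.85 and 8.31 in Gastruloid. Its TLSMG libraries stood at 4.01, 3.99 and 4.13 TPM, its TLSMGC libraries at 1.67, 0.754 and 0.837, and its TLSMGCL libraries at 1.32, 1.31 and 1.16. Col1a1 was thus highest in Gastruloid, lower in TLSMG, and low again with CHIR99021. Col1a2 measured 1.67, 1.66 and 1.43 TPM at 96 h, 10.6, 12.3 and 19.7 in Gastruloid, 7.12, 7.55 and 10.8 in TLSMG, 16.5, 11.1 and 8.86 in TLSMGC, and 15.6, 11.4 and 12.7 in TLSMGCL. Its 120 h groups all lay above 96h and overlapped one another, except that TLSMGCL lay above TLSMG.

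From 96h to Gastruloid, Col1a1 rose by 2.41 (SE 0.17, adjusted p 1.4e-07) and Col1a2 by 2.51 (SE 0.23, adjusted p 1.67e-06). Col1a1 then fell by 1.3 (SE 0.17, adjusted p 6.33e-05) from TLSMG to TLSMGC, whereas the Col1a2 difference was 0.45 (SE 0.23, adjusted p 0.138). That Col1a2 difference passed the test with median-of-ratios scaling (0.60, adjusted p 0.0427) and after GC and length correction (0.74, adjusted p 0.0121). The TPM ratio of Col1a2 to Col1a1 was 1.77 to 2.62 in the TLSMG libraries and 9.87 to 14.8 in the TLSMGC libraries. The log2 ratio was 2.48 higher in TLSMGC, and the exact two-sided permutation test gave 0.1, the smallest p that 3 libraries against 3 allow. The ratio was 3.59 to 4.25 at 96 h, 1.79 to 2.37 in Gastruloid and 8.76 to 11.9 in TLSMGCL, as the plot of partner ratios shows. By coverage, Col1a2 lay below Col1a1 in TLSMG replicates 1 and 2 (5.61 and 5.14 beside 7.44 and 5.85). The same held for Gastruloid replicate 2 (10.5 beside 12.3). In TLSMGC, coverage was 10, 10.5 and 7.77 for Col1a2 beside 2.14, 1.46 and 1.4 for Col1a1.

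In Matrigel alone both collagen I chains were lower than in Gastruloid, Col1a1 by -0.57 (SE 0.17, adjusted p 0.0193) and Col1a2 by -0.65 (SE 0.23, adjusted p 0.0393). The Col1a1 call was lost without Gastruloid replicate 2 (-0.54), Gastruloid replicate 3 (-0.42) or TLSMG replicate 2 (-0.56), and with a pseudocount of 0.1 (-0.67, adjusted p 0.0591). The Col1a2 call was lost without Gastruloid replicate 2 (-0.73) or 3 (-0.41) and without TLSMG replicate 1 (-0.55) or 2 (-0.59), and with the replicate number as a block (adjusted p 0.0534). It was also lost without the filter on low values (adjusted p 0.0905) and in a fit of these groups alone (adjusted p 0.0636).

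**Figure D2:**
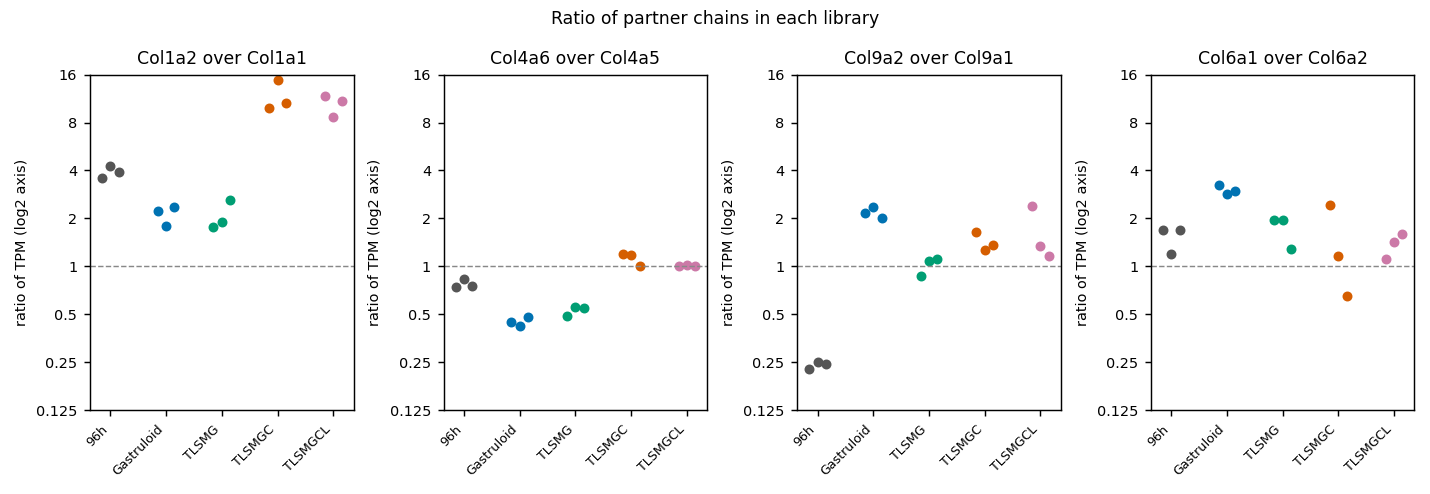
Ratio of the TPM of 2 chains of 1 collagen type (vertical axes, log2 scale) in each library, by group. Col1a2 over Col1a1 is 8.76 or more in all libraries with added CHIR99021 and 4.25 or less in all others. Col4a6 over Col4a5 is 1.01 to 1.2 in those with added CHIR99021 and 0.839 or less in all others. Ratios of coverage differ from these.

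Col5a1 encodes the main chain of collagen V, which starts collagen fibrils. It was among the steadiest members, at 28.7, 21.9 and 19.5 TPM at 96 h and 25.2, 28.2 and 34.7 in Gastruloid. The other libraries measured 24, 22.3 and 25.7 TPM in TLSMG, 32, 24.8 and 25.8 in TLSMGC, and 31.1, 24.1 and 27.2 in TLSMGCL. It changed in none of the 5 comparisons as tested. It passed in Gastruloid against 96h without 96h replicate 1 (0.47, adjusted p 0.025), and in TLSMG against Gastruloid with median-of-ratios scaling (-0.43, adjusted p 0.0263), among other settings. In TLSMGC against TLSMG it passed after GC and length correction (0.56, adjusted p 0.00406). Its partner chain Col5a2 did not exceed 0.311 TPM in any library and Col5a3 did not exceed 0.0447 TPM.

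The collagen XI chains Col11a1 and Col11a2 accompany collagen II in cartilage fibrils. Col11a1 measured 2.89, 2.64 and 2.66 TPM at 96 h, 4.02, 4.84 and 4.55 in Gastruloid, 5.47, 6.5 and 5.75 in TLSMG, 5.78, 4.6 and 4.69 in TLSMGC, and 5.46, 3.83 and 5.48 in TLSMGCL. It rose in Gastruloid (0.55, SE 0.13, adjusted p 0.00352) and in TLSMG (0.89, SE 0.13, adjusted p 8.02e-05) relative to 96h. A rise in TLSMG over Gastruloid (0.34, adjusted p 0.0495) did not hold: it was lost without any single library of either group (0.28 to 0.39) and in several other settings, and became -0.05 (adjusted p 0.726) after GC and length correction. Col2a1 rose far more than Col11a1, so that their TPM ratio went from between 2.57 and 3.11 at 96 h to between 14.2 and 26.1 at 120 h. Col11a2 ranged from 0.797 to 3.93 TPM over the 15 libraries and changed in no comparison as tested. All its Gastruloid libraries lay above all 96h libraries (0.71, adjusted p 0.0651), and this difference passed after GC and length correction (0.72, adjusted p 0.0435).

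Col27a1, a fibrillar collagen known from cartilage, measured 2.65, 1.62 and 2.72 TPM at 96 h, 1.84, 1.59 and 2.95 in Gastruloid and 2.69, 3.6 and 3.17 in TLSMG. It measured 8.57, 7.53 and 3.57 TPM in TLSMGC and 6.19, 3.51 and 6.41 in TLSMGCL. The rise with CHIR99021 was 0.80 (SE 0.27, adjusted p 0.0318), although TLSMGC replicate 3 lay within the TLSMG range. The call was lost without TLSMG replicate 1 (0.72) or 3 (0.81), without TLSMGC replicate 1 (0.60) or 2 (0.68), and without the filter on low values (adjusted p 0.0761). Col24a1, a fibrillar member below the level for testing, was higher at 96 h (1.01 to 1.45 TPM) than in the Gastruloid libraries (0.229 to 0.558 TPM). In a fit without the filter on low values its difference from 96h was -0.74 in Gastruloid (SE 0.13, adjusted p 0.00124). In TLSMG it was -0.43 (SE 0.13, adjusted p 0.0285).

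The 2 tested network collagens were Col4a5 and Col4a6, minor chains of collagen IV that form a network of their own in some basement membranes. Their genes lie head to head on the X chromosome, Col4a6 at chrX:141165403-141474076 on the minus strand and Col4a5 at chrX:141475385-141689234 on the plus strand, with 1308 bases between them. Both printed promoter windows overlap that gap. Col4a5 measured 8.68, 6.81 and 7.84 TPM at 96 h, 7.75, 7.16 and 7.42 in Gastruloid, 7.8, 9.26 and 9.02 in TLSMG, 14.9, 13.4 and 14.9 in TLSMGC, and 15.1, 12.2 and 15.3 in TLSMGCL. Col4a6 measured 6.49, 5.72 and 5.88 TPM at 96 h, 3.49, 3.03 and 3.56 in Gastruloid, 3.79, 5.14 and 4.95 in TLSMG, 17.8, 15.7 and 15.1 in TLSMGC, and 15.2, 12.4 and 15.4 in TLSMGCL. For both genes all libraries with added CHIR99021 lay above all others. The summed level of 5 presomitic mesoderm markers was from 897 to 1100 TPM at 96 h, from 22.9 to 44.4 in Gastruloid, from 35.7 to 56.3 in TLSMG, from 162 to 218 in TLSMGC and from 162 to 198 in TLSMGCL, and its part in the Col4a5 and Col4a6 levels was not tested.

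With CHIR99021, Col4a6 rose by 1.62 (SE 0.12, adjusted p 2.81e-07), to a mean 3.5 times higher, and Col4a5 by 0.67 (SE 0.11, adjusted p 0.000266), to a mean 1.65 times higher. The TPM ratio of Col4a6 to Col4a5 was 0.486 to 0.554 in TLSMG and 1.02 to 1.2 in TLSMGC, and its log2 value was 1.09 higher in TLSMGC (exact permutation p 0.1, the smallest possible). By coverage, Col4a6 lay below Col4a5 in every TLSMGC and TLSMGCL library except TLSMGC replicate 2 (27.3 beside 26.9). A ratio above 1 thus depended on the measure. Coverage in TLSMG was 5.84, 6.71 and 11.1 for Col4a6 beside 13.7, 14.4 and 24.5 for Col4a5. From 96h to Gastruloid, Col4a6 fell by 0.69 (SE 0.12, adjusted p 0.000368), while Col4a5 had means of 7.78 and 7.44 TPM and did not pass. Col4a6 was also lower in TLSMG than at 96h (-0.33, adjusted p 0.0348) and higher in TLSMG than in Gastruloid (0.36, adjusted p 0.0255). The first call was lost without any single 96h library (-0.28 to -0.36) or TLSMG replicate 1 (-0.22). The same held without the filter on low values (adjusted p 0.0564) and in a fit of TLSMG and 96h alone (adjusted p 0.0627). The second call was lost without Gastruloid replicate 2 (0.31), TLSMG replicate 2 (0.30) or TLSMG replicate 3 (0.32), and with the other scalings (0.13 to 0.22). A fit of TLSMG and Gastruloid alone lost it too (adjusted p 0.0627).

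The other head-to-head pair of collagen IV chains, Col4a3 and Col4a4, lie 71 bases apart on chromosome 1 and hardly contributed RNA. Col4a3 did not exceed 0.0115 TPM and was listed at 0 in 13 libraries, and Col4a4 did not exceed 0.188 TPM. The other network collagens were also low. Col8a1, known from vessels and the cornea, reached 0.35 to 0.481 TPM in TLSMG and at most 0.149 TPM elsewhere. Col8a2 stayed at or below 0.332 TPM, and Col10a1, the marker of hypertrophic cartilage, was listed at 0 in 14 libraries.

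Collagen IX is a FACIT collagen of cartilage with 3 chains. Col9a2 measured 1.51, 1.1 and 0.755 TPM at 96 h, 5.26, 6.07 and 5.68 in Gastruloid, 4.03, 3.93 and 4.28 in TLSMG, 5.47, 4 and 3.4 in TLSMGC, and 4.75, 3.43 and 4.33 in TLSMGCL. It rose by 1.67 (SE 0.16, adjusted p 2.12e-06) in Gastruloid and by 1.27 (SE 0.16, adjusted p 2.24e-05) in TLSMG. All TLSMG libraries of Col9a2 lay below all Gastruloid libraries, a difference that missed the threshold as tested (-0.39, adjusted p 0.0643). It passed with median-of-ratios scaling (-0.53, adjusted p 0.0132), with FPKM (-0.45, adjusted p 0.008) and in a fit of these groups alone (-0.39, adjusted p 0.0181). After GC and length correction it did not pass (-0.38, adjusted p 0.0941). Col9a1 went the other way from 96h (6.68, 4.38 and 3.11 TPM) to Gastruloid (2.44, 2.59 and 2.84 TPM), a difference of -0.62 (SE 0.21, adjusted p 0.0282). That call was lost without 96h replicate 1 (-0.38) or 2 (-0.64) and without Gastruloid replicate 1 (-0.58) or 2 (-0.61). It was also lost without the filter on low values (adjusted p 0.0652) and in a fit of these groups alone (adjusted p 0.0605). The TPM ratio of Col9a2 to Col9a1 was 0.225 to 0.251 at 96 h and 2.0 to 2.35 in Gastruloid, a log2 difference of 3.18 (exact permutation p 0.1, the smallest possible). Col9a3, whose exons overlap those of Tcfl5 on the opposite strand, ranged from a listed 0 to 1.5 TPM.

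Col14a1, a FACIT collagen of mesenchyme, had the largest rise of the tested members from Gastruloid to TLSMG. It measured 4.82, 1.57 and 1.77 TPM at 96 h, 1.16, 1.65 and 2.05 in Gastruloid, 5.57, 6.7 and 5.45 in TLSMG, 2.54, 3.4 and 2.15 in TLSMGC, and 0.62, 0.486 and 0.335 in TLSMGCL. All TLSMG libraries lay above all others. It was higher in TLSMG than in Gastruloid by 1.41 (SE 0.25, adjusted p 0.00106) and than at 96h by 0.99 (SE 0.25, adjusted p 0.00581), or by 1.37 without 96h replicate 1. With CHIR99021 it fell by 0.91 (SE 0.25, adjusted p 0.0113), a call lost after GC and length correction (-0.58, adjusted p 0.086).

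With LDN Col14a1 fell by a further 1.31 (SE 0.25, adjusted p 0.0258), to a mean 5.6 times lower, and the 3 libraries of each group did not overlap. The call missed the threshold without any single library except TLSMGC replicate 3 (differences of -1.18 to -1.38, adjusted p 0.0632 to 0.109). It also missed the threshold without the filter on low values (adjusted p 0.0669). The remaining tested FACIT genes were Col22a1 (1.46 to 3.86 TPM) and Col16a1. Col16a1 changed only with CHIR99021, from a TLSMG mean of 1.61 to 0.646 TPM (-0.67, adjusted p 0.0475), with overlapping libraries and a call lost without TLSMG replicates 1 (-0.74) or 3 (-0.45) and without TLSMGC replicates 1 (-0.62) or 3 (-0.50). The Col16a1 call was also lost with median-of-ratios scaling (-0.58, adjusted p 0.0854), after GC and length correction (-0.34, adjusted p 0.309) and with the replicate block (adjusted p 0.071). The same held without the filter on low values (adjusted p 0.0971) and in a fit of TLSMGC and TLSMG alone (adjusted p 0.0724). Col12a1 stayed at or below 1.12 TPM, and Col19a1 and Col20a1 at or below 0.0727 and 0.111 TPM.

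Col18a1 encodes collagen XVIII, a basement membrane collagen with heparan sulphate chains whose end fragment is endostatin. It was the most abundant member in every group. It measured 47, 44.3 and 54.1 TPM at 96 h, 154, 140 and 143 in Gastruloid, 151, 155 and 167 in TLSMG, 279, 221 and 228 in TLSMGC, and 308, 275 and 298 in TLSMGCL. It rose by 1.57 (SE 0.09, adjusted p 1.67e-08) in Gastruloid and by 1.68 (SE 0.09, adjusted p 9.18e-09) in TLSMG, and the latter groups overlapped each other. With CHIR99021 it rose by a further 0.61 (SE 0.09, adjusted p 0.000166), or by 0.95 after GC and length correction. Its share of all members' TPM ran from 24.1% to 35.2% at 96 h, from 31.9% to 37.5% in Gastruloid and from 33.9% to 35.1% in TLSMG. With added CHIR99021 it was higher in every library, from 50.8% to 54.1% in TLSMGC and from 57.3% to 59.5% in TLSMGCL.

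The other multiplexin, Col15a1, had another pattern at a much lower level. It was 1.61 to 2.19 TPM in the TLSMG libraries and at most 0.169 TPM in any other, so it was not among the tested genes. In a fit without the filter on low values it was higher in TLSMG than in Gastruloid by 1.27 (SE 0.07, adjusted p 3.31e-06) and lower in TLSMGC than in TLSMG by 1.44 (SE 0.07, adjusted p 1.3e-07). The summed level of 7 endothelial marker genes moved the same way, and was from 8.53 to 11.8 TPM at 96 h, from 29.3 to 38.1 in Gastruloid, from 234 to 285 in TLSMG, from 22.3 to 72.4 in TLSMGC and from 10.7 to 18.1 in TLSMGCL. Of these markers 6 of 7 rose with Matrigel, beside 31.5% of all genes, and all 7 fell with CHIR99021, beside 30.5%. None was under 0.1 TPM in every library of a group. Col14a1 and Col23a1, described with their families, were also high in TLSMG. The part of endothelial cells in the levels of these genes was not tested.

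The transmembrane collagens were higher at 96 h or in TLSMG than elsewhere. Col13a1, found at cell junctions, measured 29.9, 26.6 and 24.1 TPM at 96 h, 10, 9.35 and 12.3 in Gastruloid, 10.6, 14.1 and 14 in TLSMG, 16.8, 15.3 and 14.6 in TLSMGC, and 17.8, 14.3 and 12.6 in TLSMGCL. It fell from 96h by 1.27 (SE 0.14, adjusted p 9.57e-06) to Gastruloid and by 1.01 (SE 0.14, adjusted p 6.8e-05) to TLSMG. All TLSMGC libraries were above all TLSMG libraries, yet the difference of 0.26 missed the threshold (adjusted p 0.159). It passed with median-of-ratios scaling (0.41, adjusted p 0.0237), with FPKM (0.34, adjusted p 0.0408) and after GC and length correction (0.45, adjusted p 0.01).

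Col23a1 measured 15.7, 7.38 and 5.56 TPM at 96 h, 6.32, 6.29 and 7.62 in Gastruloid, 14.3, 15.3 and 14.5 in TLSMG, 7.58, 7.64 and 4.6 in TLSMGC, and 8.71, 5.86 and 8.93 in TLSMGCL. The TLSMG libraries stood above all others except 96h replicate 1. Matrigel came with a rise of 1.02 (SE 0.28, adjusted p 0.0103) and CHIR99021 with a fall by 1.07 (SE 0.28, adjusted p 0.00714). Against 96h the TLSMG difference was 0.69 (adjusted p 0.0546), and 1.08 (adjusted p 0.00117) without 96h replicate 1.

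Col25a1, a transmembrane collagen of neurons and muscle precursors, measured 2.38, 2.41 and 2.01 TPM at 96 h, 0.66, 1.75 and 1.26 in Gastruloid, 2.69, 1.68 and 2.48 in TLSMG, 0.908, 0.541 and 0.49 in TLSMGC, and 0.477, 0.337 and 0.643 in TLSMGCL. It was thus high at 96 h and in TLSMG. Its fall with CHIR99021 was 0.99 (SE 0.18, adjusted p 0.000797). Its lower level in Gastruloid than at 96h (-0.58, adjusted p 0.0213) was lost without 96h replicate 1 (-0.55) or 2 (-0.55) or Gastruloid replicate 1 (-0.38). Its higher level in TLSMG than in Gastruloid (0.58, adjusted p 0.0231) was lost without Gastruloid replicate 1 (0.38), TLSMG replicate 1 (0.49) or TLSMG replicate 3 (0.53), and with median-of-ratios scaling (0.47) or GC and length correction (0.16). A fit of TLSMG and Gastruloid alone lost this call too (adjusted p 0.0688). Col17a1, the collagen of hemidesmosomes in epithelia, was 0.859 to 1.56 TPM at 96 h and at most 0.122 TPM in any 120 h library. In the fit without the filter it was lower in Gastruloid by 1.09 (SE 0.09, adjusted p 3.02e-06).

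Col26a1, a secreted collagen of mesenchyme that is placed in none of these families, measured 11.9, 5.68 and 3.84 TPM at 96 h. It stood at 42.8, 52.7 and 63.4 TPM in Gastruloid, 74.3, 62.6 and 66.6 in TLSMG, 15.2, 17 and 15.9 in TLSMGC, and 16, 16.5 and 16.1 in TLSMGCL. The libraries with added CHIR99021 formed a tight range between 96h and the other 120 h groups. It rose by 2.84 (SE 0.25, adjusted p 1.11e-06) to Gastruloid and by 3.2 (SE 0.25, adjusted p 3.02e-07) to TLSMG. It fell by 2.01 (SE 0.25, adjusted p 3.52e-05) with CHIR99021, to a mean 4.23 times lower. LDN left it at 16.2 beside 16 TPM.

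Collagen VI, whose beaded filaments are built from Col6a1, Col6a2 and a further chain, was low throughout and lowest at 120 h. Col6a1 measured 2.52, 2.41 and 2.07 TPM at 96 h, 0.828, 0.8 and 0.922 in Gastruloid, 1.09, 0.851 and 0.859 in TLSMG, 0.669, 0.488 and 0.25 in TLSMGC, and 0.466, 0.519 and 0.525 in TLSMGCL. It fell by 0.85 (SE 0.12, adjusted p 8.53e-05) from 96h to Gastruloid and by 0.79 (SE 0.12, adjusted p 0.000142) to TLSMG. A fall by 0.41 with CHIR99021 (adjusted p 0.016) was lost without TLSMG replicate 1 (-0.35) or TLSMGC replicate 3 (-0.29) and after GC and length correction (-0.18). It was also lost in a fit of TLSMGC and TLSMG alone (adjusted p 0.074). Col6a2, 85.2 kb away from Col6a1 on chromosome 10 and on the same strand, was 1.22 to 2.0 TPM at 96 h and 0.255 to 0.31 TPM in Gastruloid. It was lower in Gastruloid in the fit without the filter, by 0.99 (SE 0.10, adjusted p 1.52e-05). Col6a3 ranged from 0.0513 to 1.01 TPM, and Col6a4, Col6a5 and Col6a6 did not exceed 0.252 TPM.

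**Figure D3:**
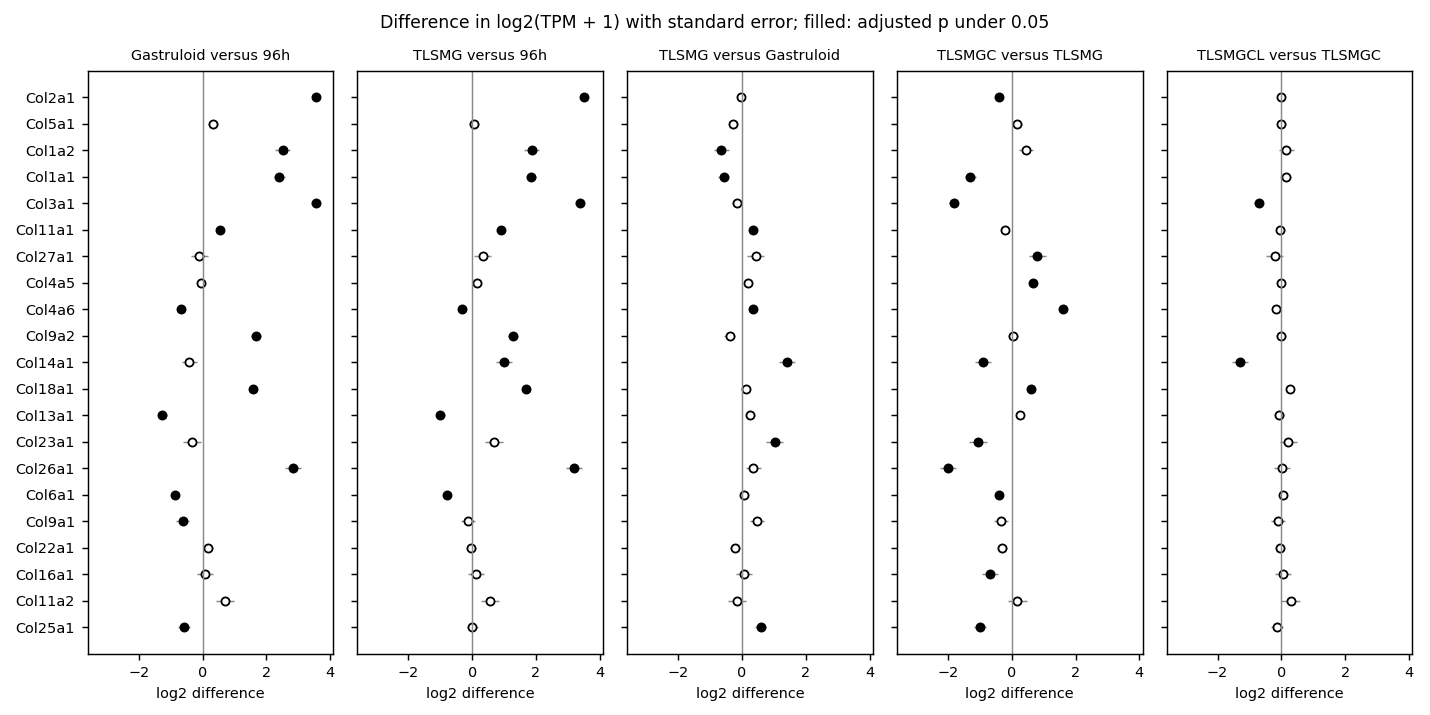
Differences in log2(TPM + 1) (horizontal axes) with their standard errors for the 21 tested collagen genes (rows) in the 5 comparisons (columns), with filled points for an adjusted p under 0.05. The points of TLSMGCL against TLSMGC lie near 0 except for Col14a1 and Col3a1, and Col4a6 has the largest rise with CHIR99021.

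In all, 16 of the 42 members had a mean under 1 TPM in every group, and 9 of these had a mean under 0.1 TPM in every group (Col4a3, Col5a3, Col6a4, Col6a5, Col6a6, Col10a1, Col19a1, Col20a1 and Col28a1). Col7a1, the anchoring fibril collagen of skin, ranged from 0.0913 to 1.05 TPM, its highest value being in 96h replicate 1. Without counts per gene no detection limit can be given for these genes, and a listed 0 can be a failed estimate.

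**Figure D4:**
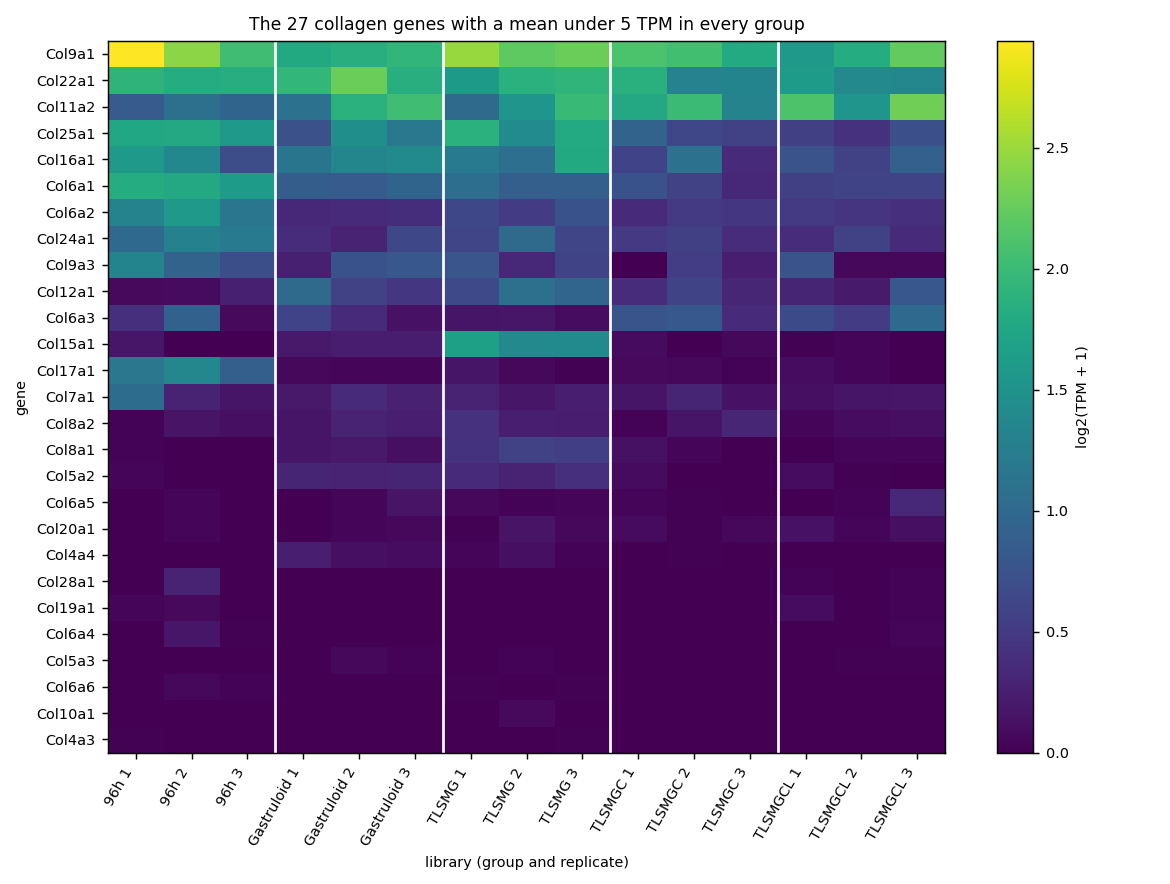
Heatmap of log2(TPM + 1) (colour) for the 27 collagen genes with a mean under 5 TPM in every group (rows) in the 15 libraries (columns, by group and replicate). Col17a1 is visible at 96 h and Col15a1 in TLSMG, and the lowest rows are near 0 in all libraries.

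Genes that build and process collagen were counted as lists, to be read against the shares of all genes that rose or fell. These were 20.8% and 20.5% from 96h to Gastruloid, 33.5% and 12.5% to TLSMG, 31.5% and 7.87% with Matrigel, and 10.4% and 30.5% with CHIR99021. With median-of-ratios scaling all genes split 2763 higher and 2594 lower with Matrigel and 2621 and 2685 with CHIR99021. Of 18 tested genes for collagen folding and modification, 5 rose and 6 fell from 96h to Gastruloid, 5 and 4 to TLSMG, 3 and 2 with Matrigel, and 6 and 5 with CHIR99021. None passed with LDN by limma, where 4 of 18 had an unadjusted p under 0.05. With median-of-ratios scaling the folding genes split 2 higher and 4 lower with Matrigel and 8 and 3 with CHIR99021. Plod1, a lysyl hydroxylase of collagen helices, went from a mean of 18.7 ± 1.72 TPM (SD, n = 3) at 96 h to 64.2 ± 6.95 in Gastruloid, 38.9 ± 8.39 in TLSMG, 136 ± 26.5 in TLSMGC and 211 ± 17.1 in TLSMGCL. Its rise with CHIR99021 was 1.78 (SE 0.15, adjusted p 1.35e-06), the largest of the list. Fkbp10, a chaperone of procollagen, fell most with CHIR99021, from 14.3 ± 0.17 to 6.96 ± 0.464 TPM (-0.94, SE 0.10, adjusted p 8.69e-06).

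Among 9 tested genes for propeptide cleavage and crosslinking, 5 rose and 4 fell from 96h to Gastruloid, 5 and 3 to TLSMG, 1 and 0 with Matrigel, and 1 and 5 with CHIR99021. None passed with LDN by limma, where 1 of 9 had an unadjusted p under 0.05. Pcolce, an enhancer of procollagen cleavage, rose from 2.69 ± 0.798 TPM to 25.6 ± 2.17 in Gastruloid (2.87, SE 0.18, adjusted p 2.83e-08). Tll2, a protease of the family that cleaves procollagens, fell from 6.97 ± 0.791 to 0.142 ± 0.0564 TPM in the same comparison (-2.8, SE 0.11, adjusted p 3.95e-10). Loxl3, a crosslinking oxidase, fell most with CHIR99021, from 2.67 ± 0.758 to 0.668 ± 0.776 TPM (-1.21, SE 0.25, adjusted p 0.00169).

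All 4 tested collagen-degrading proteases fell with CHIR99021, beside 30.5% of all genes, and again all 4 with median-of-ratios scaling. With Matrigel 3 of 4 rose, beside 31.5% of all genes, but 1 rose and 1 fell with median-of-ratios scaling. Mmp9, a gelatinase, went from 3.28 ± 0.837 TPM in TLSMG to 0.0498 ± 0.0453 in TLSMGC (-2.01, SE 0.16, adjusted p 7.51e-07). Of the 4 tested fibril-associated genes, all rose from 96h to TLSMG, and 3 fell and 1 rose with CHIR99021. Fmod, fibromodulin, was listed at 0 in all 96h libraries and measured 24 ± 5.57 TPM in Gastruloid, 12 ± 4.92 in TLSMG and 3.59 ± 0.502 in TLSMGC. Bgn, biglycan, fell most with CHIR99021, from 7.63 ± 1.78 to 0.579 ± 0.226 TPM (-2.44, SE 0.18, adjusted p 3.5e-07).

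Of 3 tested collagen receptors, 1 rose and 1 fell from 96h to Gastruloid and with CHIR99021, and 2 rose and 1 fell with Matrigel. Itga1, an integrin chain that binds collagen, fell most from 96h, from 5.69 to 0.235 TPM in Gastruloid (-2.44, SE 0.11, adjusted p 1.5e-09). The regulators of cartilage collagens Sox5, Sox6 and Sox9, which drive Col2a1 in cartilage, all fell with CHIR99021. Sox9 had the largest fall, from 18.3 ± 2.34 to 3.13 ± 0.461 TPM (-2.22, SE 0.13, adjusted p 3.68e-08), beside Col2a1 means of 99.8 and 75.1 TPM. From 96h to Gastruloid Sox9 stood at 18.9 and 18.8 TPM, beside Col2a1 means of 7.83 and 102 TPM, and Sox5 rose from 0.288 to 2.3 TPM (1.35, SE 0.16, adjusted p 1.86e-05).

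Markers of cell types that the structures could hold were checked in the same libraries, and their counts are to be read against the same shares of all genes. The summed level of 10 fibroblast markers, which would include carried-over feeder cells, was from 38.9 to 42.7 TPM at 96 h, from 55.4 to 73.1 in Gastruloid, from 54 to 61.3 in TLSMG, from 34.7 to 45.6 in TLSMGC and from 28.2 to 31.6 in TLSMGCL. Of its 6 tested genes 3 rose and 2 fell from 96h to Gastruloid. Acta2 made up most of the sum at 96 h, with a mean of 27.7 TPM. Twist2 rose from 0.937 to 23.6 TPM in Gastruloid, while Thy1 fell from 7.01 to 0.704 TPM. The sum thus follows a few genes and is no measure of feeder cells. Lum and Fap were under 0.1 TPM in every 96h library, S100a4 in every 120 h library, and Lum and Dcn in all libraries with added CHIR99021. Of 5 sclerotome markers, 4 were tested, and 2 rose and 1 fell from 96h to Gastruloid and to TLSMG. Pax1 rose from 0.0362 to 61.7 TPM in Gastruloid (5.91, SE 0.14, adjusted p 8.66e-12) and 17 TPM in TLSMG, and Pax9 from 0.0222 to 3.58 and 1.55 TPM. Foxc2, which makes up most of the list's sum at 96 h and is not particular to sclerotome, fell from 342 to 121 TPM in Gastruloid. The sum of the list therefore went from between 319 and 424 TPM at 96 h to between 188 and 231 in Gastruloid and between 150 and 170 in TLSMG, while Pax1, Pax9 and Nkx3-2 were under 0.1 TPM in every 96h library. With CHIR99021 all 4 fell (3 after GC and length correction), Pax1 to a mean of 0.266 TPM, as Col1a1 and Col3a1 did, and the sum was between 84.4 and 101 TPM in TLSMGC and between 105 and 121 in TLSMGCL. All 5 neural tube markers rose from 96h to Gastruloid and to TLSMG, where 20.8% and 33.5% of all genes rose. All 5 fell with CHIR99021, where 30.5% of all genes fell. Col26a1 also rose and fell in these comparisons. From Gastruloid to TLSMG its mean went from 53 to 67.8 TPM (adjusted p 0.271 by limma), while the sum of the neural tube markers was lower in TLSMG. The sum of these markers was from 37.4 to 44 TPM at 96 h, from 210 to 304 in Gastruloid, from 133 to 201 in TLSMG, from 32.4 to 40.8 in TLSMGC and from 42.2 to 46.3 in TLSMGCL, with none under 0.1 TPM in every library of a group. The sum of 5 notochord markers was 6.94 to 15.6 TPM over all libraries, but its genes moved differently. Noto was under 0.1 TPM in every 120 h library. Nog had means of 3.33 TPM in TLSMG, 7.41 in TLSMGC and 1.84 in TLSMGCL. The means of Shh in these groups were 1.42, 0.626 and 0.265 TPM. Further lists were also checked. With CHIR99021, 1 of 5 tested somite markers rose and 3 fell. In the same comparison 4 of 6 gut and epithelial and 3 of 5 primitive and parietal endoderm markers fell, and none of these rose. The endoderm list was uneven in TLSMG, with means of 52.2 TPM for Pdgfra, 4.4 for Gata6 and 1.76 for Gata4. All 5 pluripotency markers fell as well. So did Ets1, the 1 tested gene of the neural crest list, from a mean of 79.6 to 15.5 TPM. The other genes of that list (Sox10, Foxd3, Tfap2a and Tfap2b) did not exceed 1.29 TPM in any library, so Ets1 alone is no measure of neural crest. The part of these cell types in the levels of the collagens was not tested.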

How the data were processed

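RNA was measured by stranded, paired-end sequencing of polyadenylated RNA in 15 libraries of pooled structures, 3 in each of 5 groups, per the labels' protocols. The deposited tables give TPM, FPKM and coverage per gene, per the file headers. The submitters' processing notes name cutadapt 2.4, STAR 2.7.3a, StringTie 2.0 and build mm10, and the annotation release is not given in the sources used here. Of 54446 gene IDs, 54409 matched GENCODE M21 and 53499 had the same start and end. The tables hold no read counts, so no count model was used and counting errors are unknown. The deposited coverage per unit of deposited FPKM served only as relative depth. The single-cell samples of the series were not analysed here.

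Lines of 1 gene ID were summed. limma 3.58.1 in R 4.3.3 was fitted to log2(TPM + 1) for 14290 genes with a mean of at least 1 TPM, with all 5 groups in 1 fit and a mean trend in the prior variance. The 5 comparisons were two-sided, with Benjamini-Hochberg adjustment within each and a threshold of 0.05. The procedure was tested on simulated data. Partner ratios were compared by exact permutation for chosen pairs and comparisons only. In each of these the ratios of the groups did not overlap, which alone gives the smallest possible p of 0.1. This test could therefore not reach the threshold of 0.05. Members with a mean of 5 TPM in a group are given for every library, and of each related list the genes with the largest rise and fall in a comparison could be named. The rule for the collagen genes uses symbols only, but the decision to study them, the related genes and the cell markers were all chosen with earlier results of these data known. The alternatives were a pseudocount of 0.1, no filter, a mean of at least 5 TPM, median-of-ratios scaling, FPKM, no trend, a replicate block, a GC and length correction, the 2 groups alone, and each library left out.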

Additional observations from a re-analysis of the deposited data

How the results depend on the processing

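Of 47 called differences of single collagen genes, 32 kept their direction and call in every alternative that tested them, and 15 lost the call in at least 1, of which 7 did so under another scaling or correction. Only 1 of the 15 lost the call solely when a library was left out. For related genes the numbers were 50 of 63 kept and 13 lost. The 1 reversal was Col11a1 in TLSMG against Gastruloid, at -0.05 after GC and length correction. A mean of at least 5 TPM left fewer collagen genes to test, and 7, 7, 3, 7 and 1 were called in Gastruloid against 96h, TLSMG against 96h, TLSMG against Gastruloid, TLSMGC against TLSMG and TLSMGCL against TLSMGC, and 9 across all groups. For TLSMGCL against TLSMGC, 0 collagen genes were called by limma without the filter and 1 with those groups alone, against 2 (3 had an unadjusted p under 0.05). Over all genes, GC and length correction gave 3284 in place of 5622 calls in TLSMG against Gastruloid and 277 in place of 169 in TLSMGCL against TLSMGC, where the fit of those groups alone gave 42. The cause was not tested.

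Leaving out 1 library at a time gave 3 to 5 collagen genes in TLSMG against Gastruloid, 0 to 1 in TLSMGCL against TLSMGC, and 56 to 198 genes in all in the latter. The replicate number as a block gave 13, 12, 5, 12 and 2 collagen genes in the same order of comparisons and 17 across groups, and 5659, 6381, 5382, 5599 and 122 genes in all. Deviations of same-numbered libraries correlated at -0.18 to 0.10, so the numbers were not taken as pairs. The tables hold no counts, so the precision of low values is not known beyond the spread of 3 pools.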
